A study of Mus musculus with 10 samples.

Results

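The regions described here are 919 short stretches of H3K27me3-bearing chromatin that lay at gene promoters and were called in both culture media of a mouse organoid study. They were chosen by the peak calls themselves. A region of the WENRC broad peak list entered when it was shorter than 10000 bp, overlapped by at least 1 bp a region of the ENRI broad list that was also shorter than 10000 bp, and overlapped the interval from 2 kb before to 2 kb after the transcription start site (TSS) of any annotated transcript. The 919 regions were 18.3% of the 5009 WENRC regions and 40.9% of the 2245 WENRC regions at promoters, and 992 of 24016 gene symbols (4.13%) had a TSS at one of them. Presence in both media, length and position were therefore fixed by the choice, and the peak values below are descriptions without a test.

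The study, whose title concerns Polycomb repressive complex 2 (PRC2) in intestinal homeostasis, cultured organoids from mouse duodenum in 2 media. Both held EGF, Noggin and R-spondin. WENRC, the stem cell medium, also held Wnt3A and CHIR-99021, an activator of Wnt signalling, whereas ENRI, the enterocyte differentiation medium, lacked these and held IWP-2, an inhibitor of Wnt secretion. GRO-seq (global run-on sequencing), which reads RNA made by polymerases already at work when nuclei are isolated, gave 2 libraries per medium, and H3K27me3 ChIP-seq with input DNA gave a single library for each, so that differences between media in the mark have no replicate check.

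H3K27me3 is the trimethylation of lysine in the tail of histone H3 that PRC2 writes. In mammalian cells it is typically found at CpG-rich promoters of genes that are silent or only weakly transcribed, among them regulators of development and genes of other tissues, and it can spread over long domains or stay close to a TSS. In the intestinal epithelium, loss of PRC2 function is known to disturb the balance between proliferation and differentiation.

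The promoters at these regions were rich in the dinucleotide CG. RefSeq promoter sequences (GRCm38.p6, from 250 bases before to 50 after each start) matched 709 of the 992 genes by symbol, with 957 promoters. Their median G+C content was 61.3%, against 52.7% over all 32841 RefSeq promoters and 56.0% over promoters of genes with no H3K27me3 region. The median number of CG dinucleotides per 100 bases was 5.67, against 2.33 over all promoters and 4.33 at genes without a region. Promoters at regions of 10 kb or more had nearly the same values, with medians of 61.7% G+C and 5.67 CG per 100 bases. The letters GGGCGG, searched on both strands, occurred in 58.6% of the promoters at the short shared regions and in 35.7% of all promoters. They occurred in 45.6% of promoters of genes without a region and in 59.7% at regions of 10 kb or more. TATAA occurred in 144 of the 957 promoters, against 24.9%, and CCAAT in 33.9% of the 957 against 37.4%, on the same search. These matches describe letters in a window and not binding sites.

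The following stretches are the 250 bases before the start, 5′ to 3′ on the gene's strand, with CG in capitals. They show the first 4 genes at the regions ranked by their lowest transcription level in any library, small RNA and clone names left out. With them are 2 genes of the regions with the highest deposited scores, and both kinds hold many CG. Atf3 lies at chr1:191183334-191183583 (minus strand), Tpm1 at chr9:67049214-67049463 (minus), Cnih2 at chr19:5098522-5098771 (minus), Arpc5 at chr1:152766292-152766541 (plus), Mdga2 at chr12:67222550-67222799 (minus) and Phox2a at chr7:101818063-101818312 (plus), all in GRCm38.p6, a later build than the mm9 of the peak lists. The stretches hold 24 CG for Atf3, 19 for Tpm1, 17 for Cnih2, 37 for Arpc5, 15 for Mdga2 and 22 for Phox2a.
Atf3: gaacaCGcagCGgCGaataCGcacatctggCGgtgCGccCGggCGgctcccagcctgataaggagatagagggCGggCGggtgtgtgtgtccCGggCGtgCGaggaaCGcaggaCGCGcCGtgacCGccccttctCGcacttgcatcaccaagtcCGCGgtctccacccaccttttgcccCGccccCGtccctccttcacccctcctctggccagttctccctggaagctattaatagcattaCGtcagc
Tpm1: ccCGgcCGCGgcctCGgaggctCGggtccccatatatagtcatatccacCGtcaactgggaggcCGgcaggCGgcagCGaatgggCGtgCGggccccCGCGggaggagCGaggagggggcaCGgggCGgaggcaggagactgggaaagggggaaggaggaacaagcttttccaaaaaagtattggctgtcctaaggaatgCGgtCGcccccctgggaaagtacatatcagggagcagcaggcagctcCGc
Cnih2: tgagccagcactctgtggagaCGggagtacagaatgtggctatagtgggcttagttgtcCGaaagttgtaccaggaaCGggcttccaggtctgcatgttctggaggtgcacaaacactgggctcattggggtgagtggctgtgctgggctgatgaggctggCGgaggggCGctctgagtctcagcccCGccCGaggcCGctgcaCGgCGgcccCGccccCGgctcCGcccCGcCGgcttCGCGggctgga
Arpc5: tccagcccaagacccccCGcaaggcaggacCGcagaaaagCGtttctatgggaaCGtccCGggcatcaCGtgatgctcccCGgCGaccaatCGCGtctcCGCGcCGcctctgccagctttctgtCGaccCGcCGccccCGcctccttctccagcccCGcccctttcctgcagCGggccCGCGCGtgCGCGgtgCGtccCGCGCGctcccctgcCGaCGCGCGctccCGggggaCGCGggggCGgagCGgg
Mdga2: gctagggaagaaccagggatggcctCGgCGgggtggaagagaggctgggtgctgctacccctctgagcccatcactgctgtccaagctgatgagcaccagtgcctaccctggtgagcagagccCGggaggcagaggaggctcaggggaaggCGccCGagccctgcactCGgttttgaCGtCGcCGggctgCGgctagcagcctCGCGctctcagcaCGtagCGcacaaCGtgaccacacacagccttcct
Phox2a: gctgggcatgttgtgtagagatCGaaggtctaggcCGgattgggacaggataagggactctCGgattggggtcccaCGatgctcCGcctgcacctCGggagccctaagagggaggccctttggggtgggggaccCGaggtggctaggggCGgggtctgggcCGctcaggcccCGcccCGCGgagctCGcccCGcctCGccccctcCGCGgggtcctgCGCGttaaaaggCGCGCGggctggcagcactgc

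H3K27me3 at the regions was slightly less dense in ENRI than in WENRC, while their length was on balance the same. The deposited tag counts, scaled by HOMER to a common library size, gave a median of 18.3 tags per kb in WENRC (quartiles 16.0 and 21.2) and 16.1 in ENRI (14.3 and 18.4). The median log2 ratio of tags per kb, ENRI over WENRC, was −0.18, and 715 of 919 regions (77.8%) were denser in WENRC. A difference of 2-fold or more occurred in 1 region. The median length was 3319 bp in WENRC and 3246 bp in ENRI, with 453 regions longer in WENRC, 438 longer in ENRI and 28 of equal length. The authors' fold over input had medians of 5.23 and 5.01 and a median log2 ratio of −0.066. Both lists required a 4-fold enrichment, and the lowest fold among the regions was 4.00 in each. The whole WENRC library had 31440000 tags with 4.45% of them in broad regions, and the ENRI library 29840000 with 3.44%, and the part of this difference in the ratios was not tested.

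**Figure D1:**
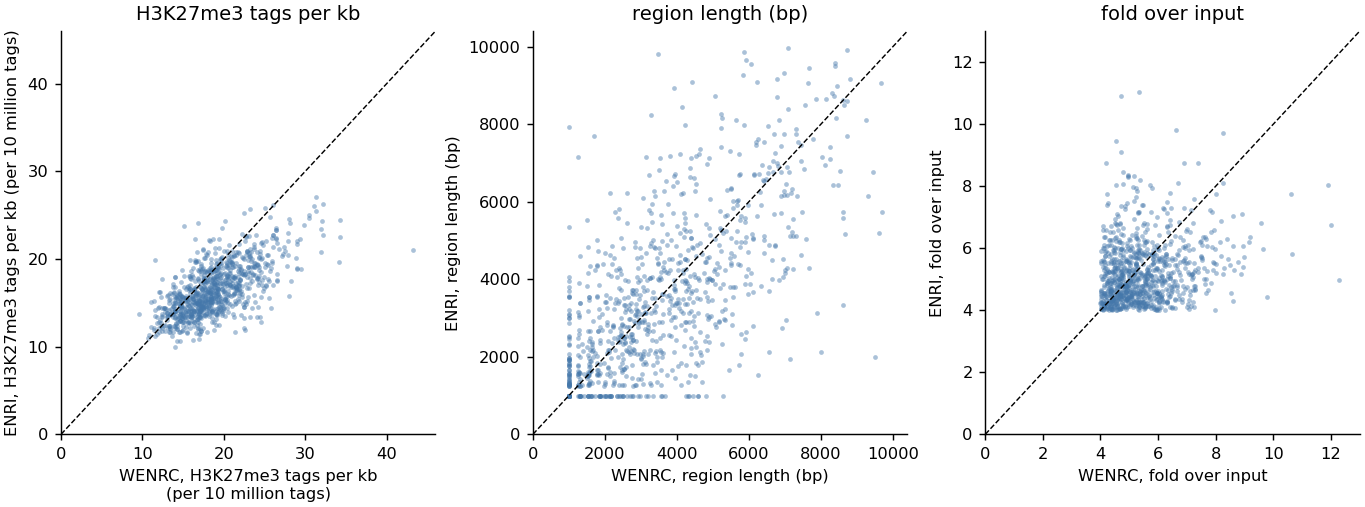
Each point is 1 of the 919 regions, with its WENRC value on the x axis and its ENRI value on the y axis, for H3K27me3 tags per kb (scaled to a common library size), length in bp and fold over input; the dashed line marks equality. Most points (715) lie below the line for tags per kb, while lengths scatter evenly on both sides and no fold lies under 4.00, the limit of the peak calls.

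The ratio depended on the kind of shared region. Short shared regions away from promoters (555) had a median log2 ratio of tags per kb of −0.098, with 66.3% denser in WENRC, and shared WENRC regions of 10 kb or more (319) had −0.33, with 91.5% denser in WENRC. The promoter regions lay between them at −0.18. These values come from the same 2 libraries, so the order is a description of this pair. Across the 919 regions the media ranked tag density alike, with a Spearman correlation of 0.64, and length with 0.66, but fold over input only with 0.20, which is a description over regions that share both libraries.

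By the lower of their 2 deposited scores, the regions ranked highest were those of Mdga2, Gpr27, Tmem108, Phox2a, Mchr1 and Nol4. A region with many tags could score low in 1 medium. That of Ccdc106 and Zfp580 had 816 tags over 8344 bp and a score of 37 in WENRC, but 499 tags and a score of 71 in ENRI. The relation of score and tags over all regions was not tested. Mdga2 encodes a cell adhesion protein of synapses, Gpr27 an orphan G protein-coupled receptor, Phox2a a homeobox factor of autonomic neurons and Mchr1 the receptor of melanin-concentrating hormone. The Mdga2 region (chr12:68320351-68326448, mm9) scored 80 in WENRC and 83 in ENRI, and the Gpr27 region (chr6:99639781-99648517) 72 in both. All 6 contained the gene's TSS. Their genes were barely transcribed except for Phox2a, which had 1.11 and 1.49 RPKM (reads per kilobase of transcript, scaled to library size) in the WENRC libraries of batches 1 and 2 and 0.895 and 0.560 RPKM in those of ENRI. Gpr27 had no read in any library, which at a limit of 3 reads allows up to 0.0904 to 0.285 RPKM depending on the library. Mdga2 had between 0.00145 and 0.0367 RPKM, and Mchr1 was at 0 in 3 of the 4 libraries with 0.0625 RPKM in WENRC batch 2.

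Among the regions whose density differed most, Comp, which encodes a cartilage matrix protein, had 43.2 tags per kb in WENRC and 21.0 in ENRI. The region was 5863 bp long in WENRC and 9858 bp in ENRI, and the totals of tags, 797 and 618, differed less, with a library-scaled ratio of 0.817 (exact 95% interval 0.734 to 0.909). Podn, which encodes a small leucine-rich proteoglycan, had 22.5 and 12.1 tags per kb and a region of 2700 bp in WENRC and 1000 bp in ENRI, and its total of tags had a ratio of 0.199 (0.135 to 0.285). Chst8, a sulfotransferase gene, had 24.6 and 12.8 tags per kb, and Ttc8, a gene of the Bardet-Biedl syndrome complex of cilia, 22.6 and 11.9. In the other direction Prss12, which encodes a neuronal serine protease, had 11.6 and 19.9 tags per kb (ratio of total tags 2.16, 1.56 to 3.02), and Wwc2 12.4 and 17.8. Cplx1, a regulator of synaptic vesicle release, had 15.1 and 23.8, but its region was 7027 bp in WENRC and 2939 bp in ENRI and its total of tags was lower in ENRI (ratio 0.661, 0.554 to 0.789). The region that Ggn and Spred3 share had 9.58 and 13.7 tags per kb and likewise fewer tags in all in ENRI. These intervals cover counting error only. Over all regions the interval of the tag ratio lay below 1 in 406, above 1 in 183 and held 1 in 330.

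The regions sat at or just inside the 5′ end of genes. A TSS lay inside the WENRC region in 733 of 919, and inside the regions of both media in 647, whereas 186 regions only came within 2 kb of one. The centre lay downstream of the nearest TSS in 649 regions and upstream in 270, with a median of 398.5 bp into the gene. Exactly 1 gene was at 846 regions, and 73 regions had 2 or more genes. The length limit was close for several genes. The longest WENRC region kept was 9709 bp (Grrp1 and Zfp593) and the shortest shared promoter region left out was 10029 bp (Gdnf), and 41 short WENRC regions at promoters were left out because their ENRI counterpart was 10 kb or longer.

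**Figure D2:**
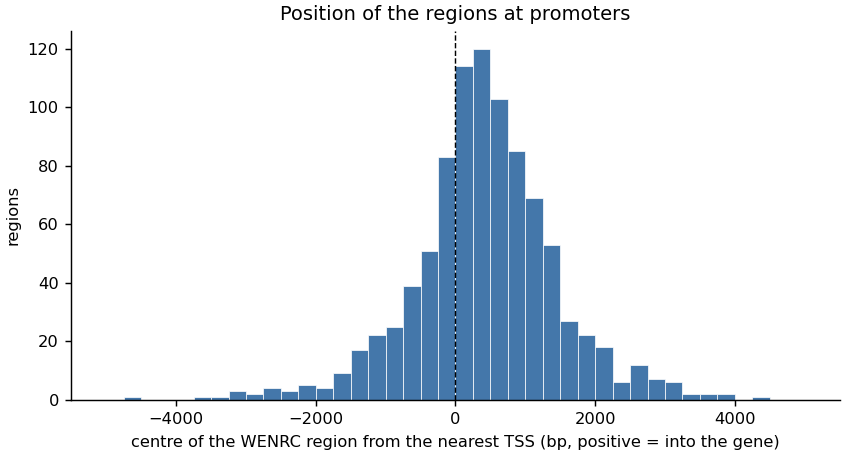
Histogram of the 919 regions by the distance in bp from the nearest TSS to the centre of the WENRC region, positive into the gene, in bins of 250 bp; the dashed line is the TSS. Most centres (649) lie to the right of the TSS, with a median of 398.5 bp.

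Gene families of development were spread unevenly between these short regions and longer ones. The lists were compiled with earlier results of these data known, and their counts are descriptions. Of 114 homeobox transcription factor genes outside the Hox clusters, 9 were at the short shared regions and 89 at regions of 10 kb or more, and of 100 Fox, Sox, Gata, Tbx, Pax, Zic, Tfap2 and Ebf factors 8 and 64. Lists of cell-to-cell signals and of neuronal genes had more members at short than at long regions, as all genes did. Of 90 secreted developmental signals and antagonists, 25 were at the short regions (among them Wnt2, Rspo3, Tgfb2 and Bmp8a) and 19 at long ones, of 108 axon guidance and adhesion genes 30 and 10 (Robo3, Cdh11, Ntn3 and Lrrtm1), and of 140 ion channels and neurotransmitter receptors 31 and 20 (Kcng3, Kcna3, Htr7 and Adra1a). Of all 24016 genes, 992 were at short and 735 at long regions. The signal list and the channel and receptor list were thus split much as all genes were. The axon guidance and adhesion list leaned further to the short regions, which was not tested. Of each list between 0 and 3 genes at the short regions were high enough to be tested between the media, and none passed limma.

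Shares of the intestinal lists at the short shared regions are given beside the 4.13% of all genes there, and were not tested. None of 39 enterocyte genes and none of 8 cyclin-dependent kinase inhibitor genes was there. Both lists are too short for such an absence to be set against that share. The lists were not free of the mark elsewhere. Regions of 10 kb or more held 2 of the inhibitor genes and 8 of 48 secretory lineage genes. WENRC-only regions held 4 enterocyte genes, and ENRI-only regions 7 of 30 stem cell and Wnt target genes. Of 30 intestinal stem cell and Wnt target genes 3 (10.0%) were (Bmi1, a Polycomb protein of PRC1, Sp5, a Wnt target transcription factor, and Slc14a1, a urea transporter), and of 48 secretory lineage genes 7 (14.6%). Atoh1, the bHLH factor that commits cells to the secretory lineage, had the region with the most WENRC tags of all, 9668 bp with 974 tags in WENRC and 9063 bp with 659 tags in ENRI (chr6:64676438-64686106 in WENRC, mm9). Its library-scaled tag ratio was 0.713 (0.645 to 0.788), while its transcription was 0.296 and 0.569 RPKM in WENRC and 0.394 and 0.516 RPKM in ENRI, with overlapping groups (limma adjusted p = 0.879). Pou2f3 and Gfi1b, transcription factors of tuft cells, stayed at or below 0.0978 RPKM. Marker genes of other tissues included Vim, Col1a2, Pdgfrb, Des, Cnn1, Elavl3 and Tubb3, 7 of 34, with mean levels between 0.00626 and 0.463 RPKM.

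Separate lists of cell type markers checked that the cultures were epithelial. Stem cell and enterocyte markers were not among them, so the labels of the 2 media were not checked. All 7 epithelial markers (Epcam, Krt8, Krt18, Cdh1, Vil1, Cdx2 and Krt19) had at least 4.02 RPKM in every library, with sums of 108 and 115 RPKM in the WENRC libraries and 180 and 140 RPKM in the ENRI libraries. Single markers did not all follow the sum, and Cdx2 was lower in both ENRI libraries. All 6 mesenchymal, 4 immune, 3 endothelial, 3 neural and 2 muscle markers were under 1 RPKM in all 4 libraries, with summed mesenchymal levels of 0.298 and 0.312 RPKM in WENRC and 0.241 and 0.522 RPKM in ENRI. In bulk organoids, fewer cells of a type and less RNA per cell cannot be told apart. GRO-seq depth was 25839484 and 29128101 reads for WENRC and ENRI of batch 1, and 9245915 and 15787828 for batch 2, where batch is the number in the file header.

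Transcription of the genes at the short shared regions was low in both media. The median RPKM of the 992 genes was 0.0203 and 0.0436 in the WENRC libraries and 0.0223 and 0.0375 in the ENRI libraries, whereas genes with no region at the promoter had medians between 0.345 and 0.573 RPKM. At least 1 RPKM was reached by 70 and 81 of the 992 genes in WENRC (7.06% and 8.17%) and by 60 and 52 in ENRI (6.05% and 5.24%), against 32.1% to 38.9% of genes without a region. Genes at regions of 10 kb or more had a median over the libraries' means of 0.0323 RPKM, those at short shared regions 0.0348, those with a region in WENRC only 0.0472, and those with a region in ENRI only 0.0571 RPKM. No read in any of the 4 libraries was found for 34 of the 992 genes. The per-library share without a read, 6.55% to 10.2%, was below that of genes with no region, 15.2% to 18.8%, beside median gene lengths of 37360 and 13295 bp.

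**Figure D3:**
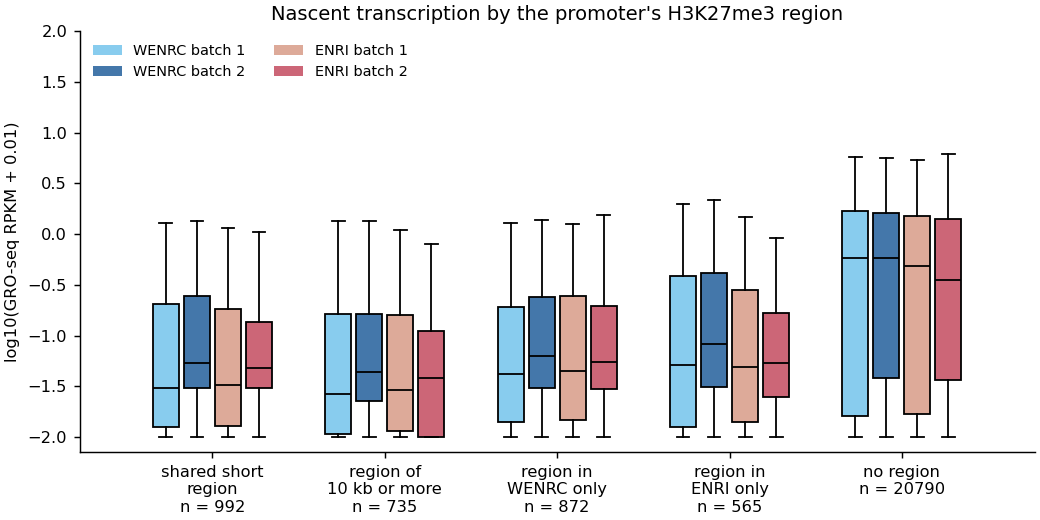
Box plots of GRO-seq levels, log10(RPKM + 0.01), in the 4 libraries for genes grouped by the H3K27me3 region at their promoter; boxes span the quartiles, lines are medians and whiskers reach the 5th and 95th percentiles. In every library the 992 genes at short shared regions sit with the other marked classes, well under the 20790 genes with no region.

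Some genes were transcribed in both media in spite of the mark. At least 1 RPKM in all 4 libraries was measured for 36 of the 992 genes (3.63%), against 26.3% of genes with no region, 2.45% of genes at regions of 10 kb or more, 4.36% at WENRC-only and 3.36% at ENRI-only regions. The gene just inside this limit was Asphd1, with a lowest value of 1.02 RPKM, and Shcbp1l, at 0.993, was just outside.

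Atf3, a stress-induced transcription factor, ranked first among them, with 8.76 and 19.4 RPKM in WENRC and 9.97 and 17.6 RPKM in ENRI. The batches differed more than the media. Tpm1, which encodes tropomyosin, had 5.11 and 6.68 RPKM in WENRC and 7.43 and 4.11 in ENRI. Cnih2, an auxiliary protein of AMPA receptors, had 4.85 and 5.09 RPKM and 3.92 and 4.28 RPKM, and was lower in both ENRI libraries. Sp5 had 3.40 and 3.51 RPKM in WENRC and 2.96 and 4.34 in ENRI, with overlapping groups. The other 6 of the 10 genes ranked by their lowest library, leaving out clone-like and small RNA names, were Arpc5, a subunit of the Arp2/3 actin complex, Rasl10a, a small GTPase, Ggn, a germ cell gene, Car14, a membrane carbonic anhydrase, Nr4a2, a nuclear receptor, and Tmem256, with 1.99 to 6.26 RPKM. The limma adjusted p of the 10 genes lay between 0.152 and 0.982, and in 8 of them the libraries of the media overlapped.

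In the 36 transcribed genes the TSS lay inside the WENRC region less often than in the rest, a difference that was not tested. The ENRI region, which can be shorter, was not used for this position. The TSS of the longest transcript was inside the WENRC region for 21 of the 36 (58.3%) and for 723 of the other 956 genes (75.6%). Put the other way, 2.82% of the 744 genes with that TSS inside the region and 6.05% of the 248 with it outside were transcribed. Of these 10 genes, 6 had the TSS outside: that of Arpc5 was 100 bp from the region, those of Atf3, Cnih2, Nr4a2 and Tmem256 508 to 867 bp and that of Sp5 1150 bp. A region was shared with another gene for 12 of the 36 (33.3%) and for 14.7% of the rest. Another annotated TSS lay farther than 2 kb from the region for 2 of the 36 (5.56%), Tpm1 and Nr4a2, and for 9.21% of the rest. Reads that started at such a TSS were not separated. The median transcript length was 5738 bp against 41710 bp. The median tag density was higher at the transcribed genes than at the rest, with 21.2 and 17.6 tags per kb in WENRC and ENRI against 18.3 and 16.0, a difference that was not tested. Both signals are averages over many cells, so alleles that carry both and a mixture of marked and transcribed alleles cannot be told apart. The strand setting of the GRO-seq counting is not known here, and reads of overlapping genes cannot be told apart either (8 of the 36, or 22.2%, were overlapped by another gene, against 19.5% of the rest).

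For 9 genes, picked out after their values were seen, the circumstances of TSS position, overlapping genes and shared regions did not apply. Transcript length and tag density were not part of this choice. The averaging over many cells and alleles holds for these genes too. Lrrc73, Tmem91, Tlx2, Galr2, Tpm2, Has3, Tubb6, Wnt2b and Emilin3 had the TSS of the longest transcript inside the WENRC region, no TSS farther than 2 kb from it, no overlapping gene and a region of their own. Their levels lay between 1.04 and 2.80 RPKM in the 4 libraries. Tlx2 is a homeobox factor of enteric neurons, Galr2 a galanin receptor, Has3 a hyaluronan synthase and Wnt2b a canonical Wnt ligand. Tlx2 had 1.61 and 1.31 RPKM in WENRC and 1.72 and 1.73 RPKM in ENRI, and Galr2 2.80 and 2.34 RPKM against 1.52 and 1.18 RPKM. None passed the test between media, and the smallest limma adjusted p of the 9 was 0.0629.

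**Figure D4:**
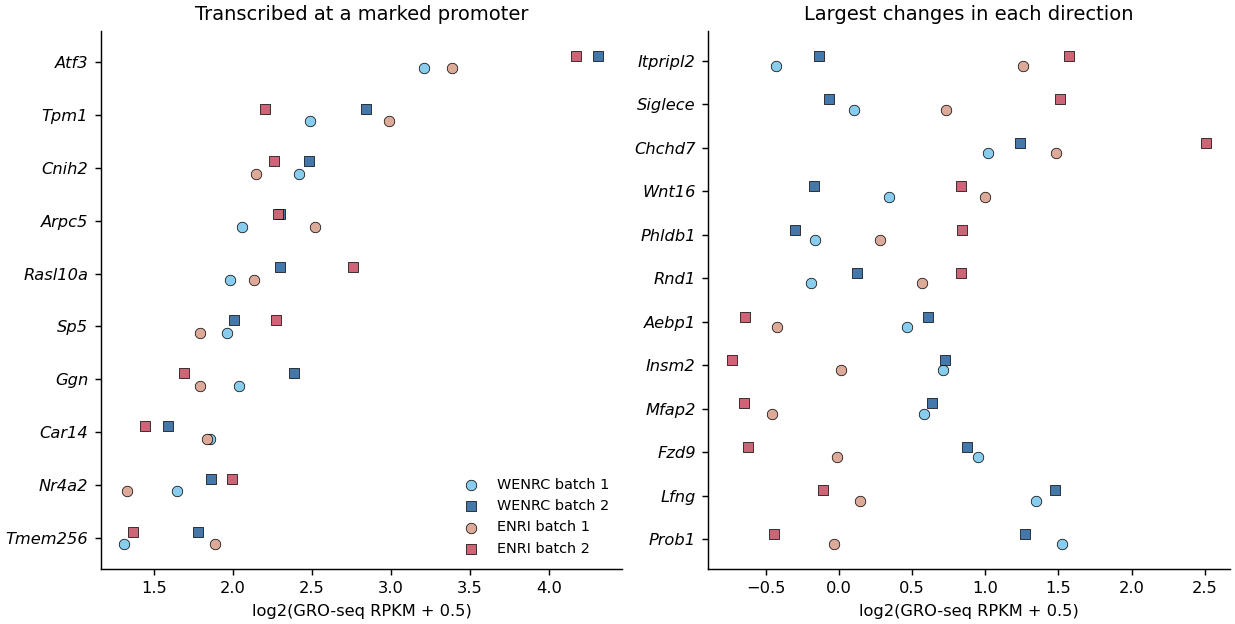
GRO-seq levels, log2(RPKM + 0.5), of single libraries (circles batch 1, squares batch 2, blue WENRC, red ENRI) for 10 genes transcribed in all libraries, ranked by their lowest value (left), and the genes with the largest changes in each direction (right). On the left the media overlap in 8 of the 10 genes. On the right, where genes were chosen for large changes, they are separate in all 12, none of which passed limma at an adjusted p of 0.05. Of all 11602 genes tested, 72.7% had media that did not overlap.

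Between the media, no gene at the regions passed the main test. Only 142 of the 992 genes had at least 0.5 RPKM in at least 2 libraries and were tested, so the counts over them are not counts over all genes at the regions. With limma on log2(RPKM + 0.5), 0 of 142 passed a Benjamini-Hochberg adjusted p of 0.05, where 0.147% of all 11602 genes tested did, and the smallest adjusted p was 0.0560. At an unadjusted p of 0.05 there were 61 of 142 (43.0%), against 39.0% of all genes tested, a share near the background. The libraries of the media did not overlap for 103 of the 142 (72.5%), against 72.7% of all tested. The median log2 change was −0.35 over the 142 and −0.21 over all tested, and 110 of the 142 (77.5%) were below 0, against 65.7%. By class, the median was −0.33 for the 97 tested genes at regions of 10 kb or more, −0.11 for the 140 at WENRC-only, −0.62 for the 123 at ENRI-only regions and −0.20 for genes without a region.

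These counts moved with single libraries and with scaling. Without the ENRI library of batch 1, limma called 74 of the 142 genes and 5794 of the 11602, and without the ENRI library of batch 2 it called 9 and 685, whereas leaving out either WENRC library left none at the regions. In these fits the lone library is assumed to vary like the other medium's. After quantile normalization 6 of the 142 were called, with 929 of all genes. Quantile normalization placed 62.7% of the 142 below 0 (53.9% of all genes) with a median of −0.13 against −0.042, and centring on each library's median placed 67.6% below 0 (54.9% of all) with a median of −0.20 against −0.062.

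The median moved with the filter in both tools. On the 142 genes the edgeR median was −0.27, with the sign of the limma median. Among 760 of the 992 genes with at least 10 reads in at least 2 libraries, a filter added after seeing the data, the median log2 change by edgeR on recovered reads was 0.20, against 0.014 over all 16754 genes that passed the same filter, and by limma it was −0.0032, against −0.094. No common shift of these genes between the media could thus be read from the data.

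Other tools made a few calls at the regions. On reads recovered from the deposited values, edgeR's quasi-likelihood test without a block called 8 of the 142 genes, of which 1 (0.704%) had the higher and 7 (4.93%) the lower level in ENRI. Of all tested genes it called 5.60% higher and 2.84% lower. With the replicate block, which pairs libraries by header batch, it called 12 (5 higher), against 8.03% of all genes tested. DESeq2 called 27 (11 higher), against 23.6%. Over the genes with at least 10 reads in 2 libraries, edgeR without the block called none, and 0% of all genes, with 89 of 760 at an unadjusted p of 0.05; with the block it called 6 of 760, all higher in ENRI, where 1.50% of all genes were called higher. Limma over those genes called 30 of 760, 27 of them lower, against 8.90% of all. These differences from the background were not tested.

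Among the genes with lower values in ENRI, Lfng, the Fringe glycosyltransferase that modifies Notch receptors, had 2.04 and 2.28 RPKM in WENRC and 0.603 and 0.425 RPKM in ENRI. The log2 change was −1.40 ± 0.15 (SE, limma adjusted p = 0.0560, edgeR adjusted p = 0.0424). Its H3K27me3 region, 2381 bp long in WENRC, was 5808 bp in ENRI, with a ratio of total tags of 2.06 (1.73 to 2.46). In tags per kb it was less dense in ENRI, with 26.5 in WENRC and 22.3 in ENRI. Prob1 had 2.38 and 1.92 RPKM and 0.474 and 0.235 RPKM, with a log2 change of −1.64 ± 0.20. Fzd9, a Frizzled receptor of Wnt ligands, had 1.43 and 1.33 RPKM in WENRC and 0.488 and 0.150 RPKM in ENRI. Mfap2, a protein of extracellular microfibrils, had 0.995 and 1.05 against 0.229 and 0.137 RPKM. Aebp1, a secreted carboxypeptidase-like protein, and Insm2, a zinc finger factor, completed the 6 with the largest negative values, with 0.882 to 1.15 RPKM in WENRC and 0.102 to 0.510 RPKM in ENRI. In each of the 6 genes, chosen for large changes, both ENRI libraries were below both WENRC libraries. The media did not overlap in 72.7% of all tested genes, in either direction. Of them edgeR without the block called Lfng, Prob1, Mfap2 and Aebp1. The ratios of total H3K27me3 tags, which also follow the length of the region, had no common direction. Their interval lay above 1 for Lfng, Fzd9 and Mfap2, held 1 for Aebp1 and Insm2 and lay below 1 for Prob1 (0.696, 0.603 to 0.802).

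Itpripl2 had the largest positive log2 change among the 142 genes that limma tested, with 0.242 and 0.410 RPKM in WENRC and 1.90 and 2.47 RPKM in ENRI (log2 change 1.70 ± 0.18 SE, limma adjusted p = 0.0560, edgeR adjusted p = 0.0424). Its region was 4599 bp long in WENRC and 1000 bp in ENRI, and it held 222 and 39 tags, a library-scaled ratio of 0.185 (0.128 to 0.261). In tags per kb the difference was small, with 15.4 in WENRC and 13.1 in ENRI. The tag ratios of this paragraph compare totals of regions that can differ in length. Wnt16, a Wnt ligand, had 0.767 and 0.389 RPKM in WENRC and 1.50 and 1.29 RPKM in ENRI, with a tag ratio of 0.506 (0.375 to 0.675). Rnd1 had 0.375 and 0.590 RPKM and 0.981 and 1.28 RPKM, with a tag ratio of 0.396 (0.327 to 0.477). Siglece, a sialic acid-binding lectin of myeloid cells, Chchd7, a mitochondrial protein, and Phldb1 completed the 6 with the largest positive limma values, with limma adjusted p between 0.0776 and 0.168. Chchd7 had a tag ratio of 0.769 (0.648 to 0.912). The tag ratio of Siglece, 0.998 (0.615 to 1.62), and that of Phldb1, 1.01 (0.863 to 1.19), had intervals that held 1.

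The authors' deposited table, whose edgeR fit covers all transcripts without the filter on RPKM, held 74 genes at these regions with an FDR under 0.05. In the authors' deposited table, 44 of them (4.44% of the 992) were higher in ENRI, against 5.65% of all genes, and 30 (3.02%) were lower, against 3.06%. Among genes higher in ENRI in the authors' deposited table, 35 (79.5%) had fewer H3K27me3 tags in ENRI and 28 (63.6%) a shorter region. For the 30 lower genes of the authors' deposited table these counts were 18 (60.0%) and 13 (43.3%), and for the 918 genes not called there 608 (66.2%) and 451 (49.1%). The differences between these shares were not tested. In tags per kb the classes ran differently, with median log2 ratios of −0.13 for the higher, −0.089 for the lower and −0.19 for the uncalled genes of the authors' deposited table.

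**Figure D5:**
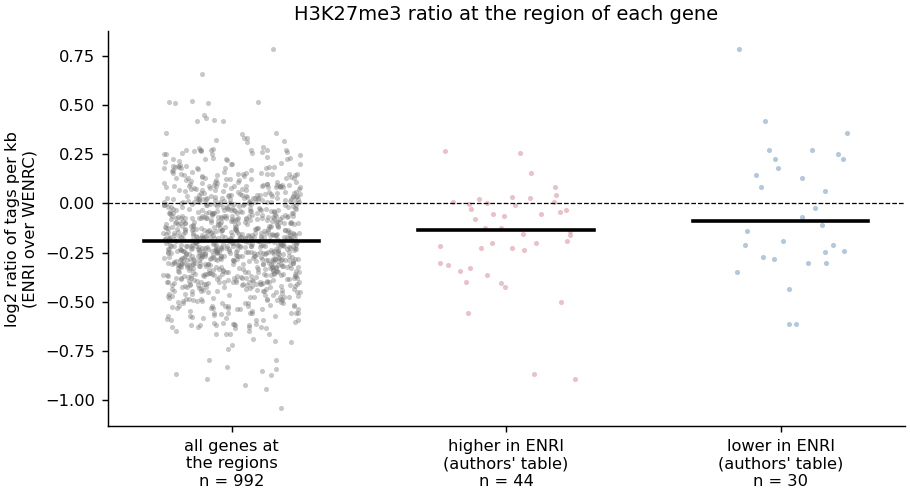
Log2 ratio of H3K27me3 tags per kb, ENRI over WENRC, at the region of each gene (points, spread sideways for legibility), for all 992 genes and for the 44 higher and 30 lower in ENRI in the authors' deposited table; black bars are medians. The medians, −0.19, −0.13 and −0.089, all lie below 0 and the groups overlap widely.

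Podn, which is described above for its shorter region in ENRI, had 28 and 7 reads in WENRC (0.0626 and 0.0438 RPKM) and 220 and 309 reads in ENRI (0.437 and 1.13 RPKM). Only 1 library reached 0.5 RPKM, so limma did not test it. The authors' deposited table gave a log2 fold change of 3.85 at an FDR of 1.1e-07, and edgeR with the replicate block over genes with at least 10 reads in 2 libraries gave 3.83 with an adjusted p of 0.0479. That fit also called Itpripl2, Slc5a4a, Fam78a, Pgm5 and Dnm3. Of these 6 genes, named because that fit called them, Pgm5 alone had more H3K27me3 tags in ENRI (ratio 1.26, 0.973 to 1.63). In tags per kb Pgm5, Dnm3 and Fam78a were denser in ENRI, and Podn, Itpripl2 and Slc5a4a in WENRC. Without the block the adjusted p of the 6 lay between 0.0819 and 0.117.

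Across the 142 tested genes, the log2 ratio of tags per kb and the log2 change of transcription had a Spearman correlation of −0.13 and a Pearson correlation of −0.12. The genes share the 2 ChIP-seq and 4 GRO-seq libraries, and the values are a description. Within a medium, tag density and transcription level over the 992 genes had Spearman correlations of 0.16 in WENRC and 0.14 in ENRI.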

How the data were processed

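GRO-seq values were deposited as signal, reads per RefSeq transcript (mm9) that the authors counted with HOMER and scaled, per the file headers. The 4 columns sum to nearly the same total over 33022 transcripts. The values were whole multiples of 1 step per library (100% of them, counting a value as whole within 0.1), which gave back the read counts. For the longest transcript of each symbol, RPKM was calculated from the scaled reads, the deposited length and the column total. Another 4 per-sample columns, the deposited RPKM, were not used. Strand setting and coordinate base are not given in the sources used here. The submitters' processing notes name FastQC, Bowtie, Bowtie2, edgeR and HOMER 4.3. Log2 fold changes and FDR (adjusted p-values) in the deposited table came from the authors' edgeR comparison with batch as a term, per the file headers.

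H3K27me3 regions were called by the authors in each library alone against input with HOMER, joining 1000 bp windows up to 10000 bp apart and requiring 4-fold enrichment, per the file headers. The lists hold normalized tags (signal), control tags, a score and a fold ratio over input, all as deposited by the authors. Raw tags were recovered from the header's total. Exact binomial intervals (95%) cover counting error only, and PCR reads are not independent molecules.

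The filter kept genes reaching 0.5 RPKM in 2 or more libraries, and limma 3.58.1 (R 4.3.3, mean trend) was fitted to log2(RPKM + 0.5) of these without a block, with Benjamini-Hochberg adjustment over all tested genes. edgeR 4.0.16, DESeq2 1.42.0, other filters, scalings, promoter widths and overlaps, and each library left out, were alternatives, and all 3 tools were tested on simulated data. Columns could be assigned to a medium and a header batch but not to a mouse. The batch pairs the libraries, and deviations from the group means of same-batch libraries correlated at 0.0126 over 11602 genes. In the labels the GRO-seq samples of one medium are numbered as mouse 1 and mouse 2, and the same 2 numbers recur in the other medium. The design is thus paired by label, and the main fit did not use this pairing. Because the deposited values are scaled reads, limma was made the main test. Read counts could be recovered, however, and the count of genes called depended on this choice. Of the 142 genes limma called 0, edgeR 8 and DESeq2 27.

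The text names up to 10 genes with at least 1 RPKM in all libraries, up to 6 per direction of change, up to 6 regions by score, up to 4 by density ratio per direction and up to 4 genes per list, which comes to 68 genes, not all of them printed. Clone-like names, small RNA genes and multicopy symbols (72 of the 992) were left out of the naming. The regions, lists and tests were chosen with earlier results of these data known. The libraries of input DNA and of H3 itself were not used here beyond the peak calls.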

Additional observations from a re-analysis of the deposited data

How the results depend on the processing

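Of 91 alternatives over 9 results, 65 kept the value within its error or within 1.5 times, 24 moved it and 2 reversed it. The ratios of tag density, length and fold and the correlation of tag ratio with transcription moved under none of the alternatives run for them. Requiring a score at or above the median in both lists left 575 regions. The count of genes called by limma, 0, became 27 with DESeq2, 8 with edgeR and 6 after quantile normalization, and ranged from 0 to 74 with 1 library left out. With the replicate block, which pairs libraries by header batch, limma called 0 and edgeR 12. Fits with a filter of 10 reads in 2 libraries were chosen after seeing the data: limma then called 30 and edgeR with the block 6. The median log2 change of −0.35 was −0.50 with a pseudocount of 0.1 RPKM, −0.25 with 1 RPKM, −0.0029 without a filter, −0.13 after quantile normalization, −0.20 after median centring, −0.27 with edgeR and −0.26 with DESeq2, and ranged from −0.42 to −0.27 with 1 library left out. With the filter on reads it was 0.20 with edgeR, 0.12 with edgeR and the block, and −0.0032 with limma. The cause of these differences was not tested. The 36 transcribed genes became 62 with promoters of 5 kb on each side, 20 with the score limit, 20 with the TSS inside the region in both media, 67 at 0.5 RPKM and 10 at 2 RPKM, and the median level became 0.0253 RPKM with the TSS inside. With 9245915 to 29128101 reads per library, a gene at 0 reads is limited only to the level that 3 reads give.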
